A study of Canis lupus familiaris with 12 samples.

Results

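The miR-17~92 cluster is a group of miRNAs that are cut from a single primary transcript. Its members were taken by name as the rows cfa-miR-17, cfa-miR-18a, cfa-miR-19a, cfa-miR-20a, cfa-miR-19b and cfa-miR-92a (written without the prefix from here on), which are 6 of the 453 canine miRNAs in the count table. All 6 were counted in every library and all 6 entered the test, beside 284 miRNAs tested in total. The small RNA libraries came from CHMm, a cell line from a metastatic lesion of a canine mammary gland tumor, and from CHMmTAM, its tamoxifen (TAM)-resistant derivative, with 3 libraries per line. CHMmTAM was selected by a rising TAM concentration over 10 months, kept at 10 μM TAM for 1 month and then grown without the drug for 1 week, while CHMm is the parental line. Both lines were grown in phenol-red-free medium with charcoal-stripped serum. The resistant state is represented by 1 derived line, so resistance and drift of the line in culture cannot be told apart. The labels do not say that the 3 libraries of a line came from separate cultures. The p-values therefore measure spread between libraries that may be technical, and the main test pools this spread over the tested miRNAs.

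The primary transcript of miR-17~92 is driven by MYC and E2F factors and is best known as an oncogenic miRNA cluster of lymphoid and epithelial tumors. Drosha and Dicer release each hairpin from the transcript separately, so mature members of the same transcript can reach different levels. The members belong to 4 families with different seeds, the part of a miRNA that pairs with its targets. miR-17 and miR-20a form one family, which represses the cell-cycle inhibitor CDKN1A. miR-18a stands in its own family and is known to repress oestrogen receptor alpha. miR-19a and miR-19b form another family, and miR-92a belongs with miR-25 and miR-32 to a family that represses the pro-apoptotic BIM. In the RefSeq genes of the dog assembly UU_Cfam_GSD_1.0, the genes lie in the order MIR17, MIR18A, MIR19A, MIR20A, MIR19B-1 and MIR92A-1, and all of them lie within the span of the lncRNA gene LOC119865213. Further copies named MIR19B-2 and MIR92A-2 lie on the X chromosome in a paralogous cluster that begins with MIR106A. The counts of miR-19b and miR-92a are per mature miRNA and cannot be split between the copies. The names also do not give the arm of the hairpin that was counted.

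The libraries held from 7512659 to 12482211 counts, and a floor of 3 counts was worth 0.24 to 0.399 CPM, where CPM is the count scaled to a common library size. This floor covers counting error alone. Libraries of a line differed by more than sampling noise, so none was treated as deposited repeatedly. Epithelial miRNAs were abundant in all libraries, with the 7 listed markers (the miR-200 family, miR-203 and miR-205) summing to between 21958 and 26853 CPM, while the 4 mesenchymal markers summed to between 23.8 and 48.3 CPM. Markers of blood cells summed to between 4.99 and 6.12 CPM in CHMm and between 12.2 and 15.0 CPM in CHMmTAM. Those of muscle summed to between 6.46 and 7.05 CPM and between 29.3 and 29.6 CPM. In the comparison of the lines described below, 2 of 4 tested blood-cell and 3 of 3 tested muscle markers were higher in CHMmTAM. Of the 7 epithelial markers 3 were higher and 2 lower, of 4 mesenchymal markers 1 was lower, and of 2 tested neural markers 1 was higher. Among all tested miRNAs 25.4% were higher and 18.7% lower. miR-124, a defining neural miRNA, was at 0 in 5 of the 6 libraries, and the endothelial miR-126 was at 0 in all 3 CHMm libraries. The neural list, carried by miR-9, summed to between 1016 and 1120 CPM over all libraries, and the liver marker miR-122 had at most 4.55 CPM.

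Together the 6 members took a small and slightly larger share of the counts in the resistant line. They held 1.21%, 1.23% and 1.24% of all counts in the 3 CHMm libraries and 1.36%, 1.38% and 1.39% in the 3 CHMmTAM libraries. All CHMmTAM libraries lay above all CHMm libraries. The mean rose from 12235 ± 128 CPM (SD, n = 3) to 13763 ± 140 CPM (SD, n = 3), a ratio of 1.12, with no test because the members were chosen with earlier results known. The rise of 1529 CPM compares with a summed level of at most 29.6 CPM for the muscle markers, and less for the blood-cell markers, in any library, and the part of these cells in the result was not tested. miR-21, a miRNA outside the cluster, took from 50.2% to 54.5% of the counts. Without miR-21 in the total, the share of the members was 2.49% ± 0.0300 in CHMm and 2.995% ± 0.0534 in CHMmTAM. A share in bulk RNA cannot tell a larger number of cells with a miRNA from more of it per cell.

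The spread of abundance within the cluster was much larger than any change between the lines. miR-92a was the highest and miR-17 the lowest member in every library, and the ratio of the highest to the lowest was 231, 184 and 185 in CHMm and 192, 162 and 193 in CHMmTAM. The order miR-92a, miR-20a, miR-18a, miR-19a, miR-19b and miR-17 was identical in all 6 libraries. Scaled to CPM by TMM, the trimmed-mean factors of edgeR, the 3 libraries of a line did not overlap for any pair of neighbours in that order, in either line. The widest step was between miR-20a and miR-18a, where the mean CPM differed 13.4-fold in CHMm and 12.7-fold in CHMmTAM, and the next was between miR-19b and miR-17, at 4.10-fold and 4.74-fold. The narrowest steps were miR-18a over miR-19a, at 1.39-fold in CHMm, and miR-92a over miR-20a, at 1.26-fold in CHMmTAM. The levels did not follow the order of the genes. The row named for the first gene was the lowest, and those named for the fourth and last were the highest. The rows of miR-92a and miR-19b can also hold counts from MIR92A-2 and MIR19B-2, so their levels cannot be credited to this cluster alone. Levels of different miRNAs in small RNA sequencing also carry differences in ligation and read assignment, whose part was not tested.

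**Figure D1:**
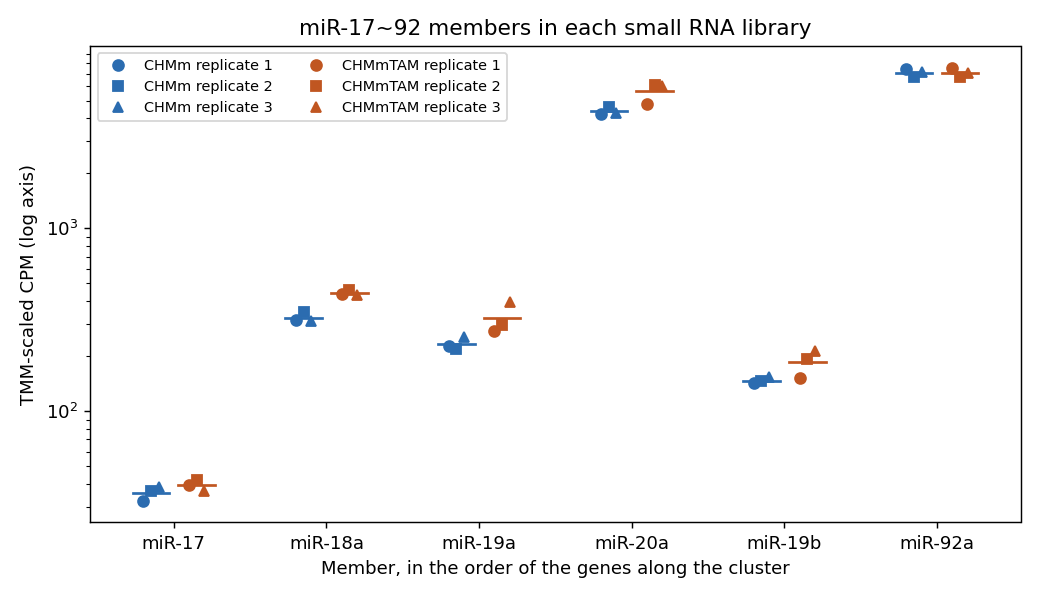
TMM-scaled CPM on a log axis for the 6 members, in gene order, in the 3 CHMm libraries (blue) and the 3 CHMmTAM libraries (orange). Points are libraries and bars are the means of a line. The level runs from about 32.4 CPM for miR-17 to 7587 CPM for miR-92a, while the colours lie close together within each member.

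miR-17 and miR-20a, which lie on the same transcript and are relatives by name, were far apart in level. The table does not say which arm of the miR-17 hairpin was counted in its row, and only the 5p product shares the seed of miR-20a, so the family placement of miR-17 rests on its name. miR-20a was 131, 126 and 111 times as abundant as miR-17 in the CHMm libraries and 122, 147 and 165 times in the CHMmTAM libraries. miR-17 ranked 127 among the 284 tested miRNAs in CHMm, whereas miR-20a ranked 26 and miR-92a ranked 21. miR-19a and miR-19b, the other related pair, differed far less, with a ratio between 1.505 and 1.87 over the 6 libraries. Together miR-92a and miR-20a made up 93.9% ± 0.251 (SD, n = 3) of the members' counts in CHMm and 92.8% ± 0.405 in CHMmTAM. The summed level of the cluster is therefore a value of these 2 miRNAs and says little about the other 4.

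The comparison of the lines asked which miRNAs differ between the resistant and the parental cells. Of the 6 members, miR-18a, miR-19a, miR-20a and miR-19b rose in CHMmTAM at a false discovery rate (FDR) below 0.05 in edgeR's quasi-likelihood test. miR-17 and miR-92a did not pass, and no member fell with the TMM scaling used. None reached the fold change of 2 that the study required besides the FDR, so none was differentially expressed by that rule. Among all 284 tested miRNAs, 44% passed the FDR in either direction, 25.4% were higher, 18.7% lower and 11.3% passed both thresholds. Of the 141 tested miRNAs with a mean level of at least 20 CPM, which all members exceed, 62.4% passed the FDR and 32.6% were higher. The median log2 fold change was 0.35 over the members and 0.06 over all tested miRNAs.

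miR-18a, the family known to repress oestrogen receptor alpha, showed the most uniform rise. It had 316, 348 and 311 CPM (scaled by TMM, as are the levels that follow) in CHMm and 439, 463 and 434 CPM in CHMmTAM. All 3 resistant libraries lay above the parental ones, and they spread little, with a coefficient of variation of 3.51%. The means were 325 ± 19.9 CPM and 445 ± 15.6 CPM (SD, n = 3), a log2 fold change of 0.45 (standard error 0.07, 95% interval 0.31 to 0.60, FDR = 2.96e-09 in edgeR's quasi-likelihood test).

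miR-19a had a similar mean change on a much wider spread. Its CPM was 228, 219 and 256 in CHMm and 276, 296 and 398 in CHMmTAM, without overlap between the lines. CHMmTAM replicate 3 stood well above the other two, and the coefficient of variation in the resistant line was 20.1%. The log2 fold change was 0.46 (standard error 0.07, 95% interval 0.31 to 0.61, FDR = 4.62e-09 in edgeR's quasi-likelihood test) and 0.31 without that library. edgeR gave miR-19a and miR-18a a standard error of 0.07 each, despite their unlike spread, because its fit pools the spread over miRNAs. In the DESeq2 Wald test the standard error of miR-19a was 0.18 and its FDR 0.0503, so that its call was lost.

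miR-19b, its close relative, had 142, 146 and 153 CPM in CHMm and 152, 193 and 213 CPM in CHMmTAM. The lines overlapped, because CHMmTAM replicate 1 lay within the range of CHMm. The log2 fold change was 0.34 (standard error 0.08, 95% interval 0.18 to 0.49, FDR = 6.91e-05 in edgeR's quasi-likelihood test). Leaving out CHMmTAM replicate 1 raised it to 0.49, and leaving out CHMmTAM replicate 3 lowered it to 0.25.

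miR-20a, the abundant member of the miR-17 family, had 4237, 4596 and 4268 CPM in CHMm and 4799, 6127 and 6037 CPM in CHMmTAM. The lines did not overlap, but CHMmTAM replicate 1 lay closer to the highest CHMm library than to the other resistant libraries. The means were 4367 ± 199 CPM and 5654 ± 742 CPM (SD, n = 3), a log2 fold change of 0.37 (standard error 0.06, 95% interval 0.25 to 0.50, FDR = 5.41e-08 in edgeR's quasi-likelihood test). In CPM this was the largest rise of any member.

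miR-17 had 32.4, 36.5 and 38.6 CPM in CHMm and 39.5, 41.8 and 36.6 CPM in CHMmTAM, and the lines overlapped. Its log2 fold change of 0.13 had a 95% interval from -0.07 to 0.33 and an FDR of 0.304 in edgeR's quasi-likelihood test. miR-92a, the most abundant member, had 7472, 6734 and 7143 CPM in CHMm and 7587, 6751 and 7053 CPM in CHMmTAM. Its lines covered nearly the same range, with a log2 fold change of 0.00286 and a 95% interval from -0.12 to 0.13 (FDR = 0.986 in edgeR's quasi-likelihood test). The interval of miR-92a lies below the values of the 4 members that rose, while that of miR-17 overlaps the intervals of all of them.

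The lines did not overlap, with CHMmTAM higher, for miR-18a, miR-19a and miR-20a, which are 3 of the 6 members. Among all tested miRNAs the lines did not overlap for 51.8%, with 28.9% higher and 22.9% lower in CHMmTAM.

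**Figure D2:**
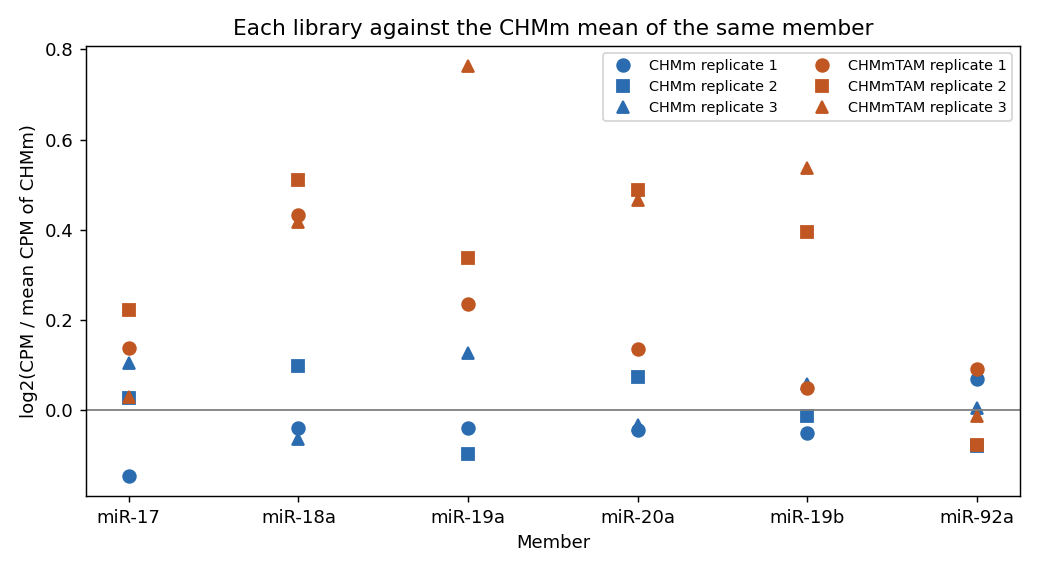
Log2 ratio of each library's CPM to the mean CPM of CHMm for the same member, with CHMm libraries in blue, CHMmTAM libraries in orange and the replicate number as the symbol. CHMmTAM replicate 1 (orange circles) is at 0.05 for miR-19b and 0.14 for miR-20a, below the other 2 resistant libraries, but at 0.43 for miR-18a, between them.

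The calls depended on how the libraries were scaled to each other, because the changes were small. Under 6 scalings the log2 fold change ranged from 0.21 to 0.55 for miR-18a and from 0.22 to 0.55 for miR-19a, and these 2 members passed the test under each of them. miR-20a ranged from 0.13 to 0.46 and miR-19b from 0.10 to 0.43, and upper-quartile scaling took both out of the calls (FDR = 0.136 and 0.405 in edgeR's quasi-likelihood test). miR-17 ranged from -0.11 to 0.22 and passed under none of the 6. miR-92a ranged from -0.24 to 0.10 and was called lower under upper-quartile scaling (FDR = 0.00319 in edgeR's quasi-likelihood test). Over the 284 miRNAs, the median shifted from 0.06 under TMM to -0.18 under the upper quartile. Relative to the median of all tested miRNAs, miR-18a was at 0.39, miR-20a at 0.31 and miR-92a at -0.06 to -0.05 under the 6 scalings. A scaling shifts all miRNAs nearly alike, so these distances could hardly move and are no separate support for the changes.

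**Figure D3:**
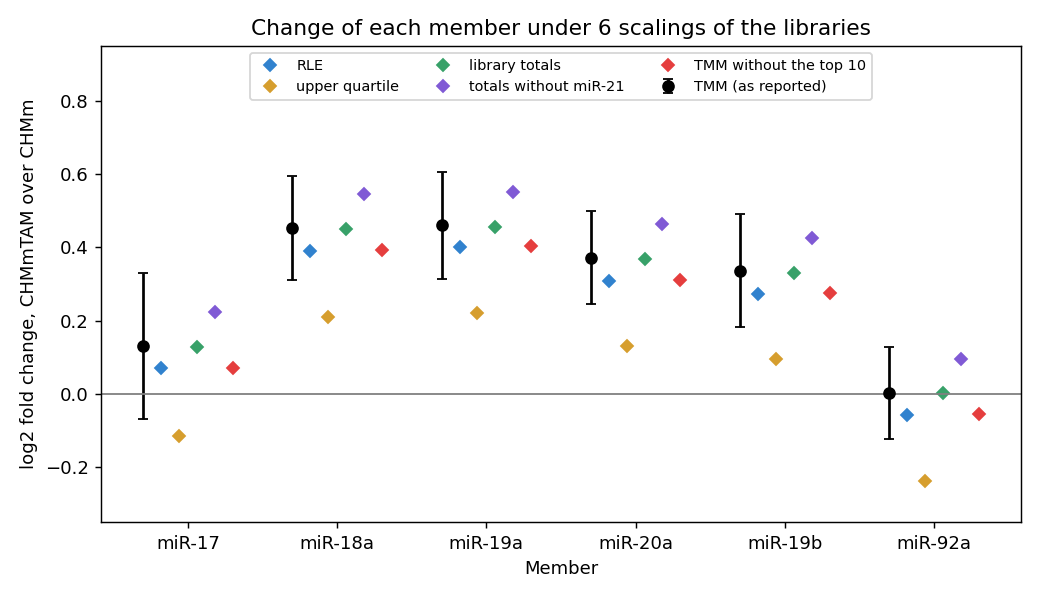
Log2 fold change of each member, CHMmTAM over CHMm, with the reported TMM value and its 95% interval in black and 5 other scalings as coloured diamonds. Every member shifts in the same direction with a scaling, and the upper-quartile value is the lowest for each, at 0.21 for miR-18a and -0.24 for miR-92a.

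Whether members of the transcript changed unequally was tested on ratios within a library, which do not depend on scaling. The log2 ratio of every tested miRNA to a member was fitted with limma, and each pair was called only if it passed in the fits with either of its members as the denominator. Of the 15 pairs, 3 differed at an FDR below 0.05. Over all miRNAs, the share whose ratio to a member changed ran from 33.9% for miR-19a to 50.5% for miR-18a as the denominator. It was 39.2% for miR-17, 39.2% for miR-20a, 36% for miR-19b and 36.4% for miR-92a. These shares count a pass in a single fit, a looser rule than that for the pairs, so they are not a matched background.

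The clearest difference was between miR-18a and miR-92a. The ratio of miR-18a to miR-92a was 0.0423, 0.0516 and 0.0435 in CHMm and 0.0578, 0.0686 and 0.0615 in CHMmTAM, without overlap. The log2 fold change of miR-18a exceeded that of miR-92a by 0.45 (standard error 0.10, FDR = 0.00186 from limma). miR-18a also exceeded miR-17, the difference of miR-17 minus miR-18a being -0.32 (standard error 0.12, FDR = 0.0217 from limma), and this ratio did not overlap between the lines either. The difference was no longer called without CHMm replicate 3 (-0.24) or without CHMmTAM replicate 3 (-0.29).

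The third pair was miR-20a against miR-92a, the 2 members that hold most of the counts. The ratio of miR-20a to miR-92a was 0.567, 0.683 and 0.598 in CHMm and 0.633, 0.908 and 0.856 in CHMmTAM. CHMmTAM replicate 1 lay inside the range of CHMm, whereas the other 2 resistant libraries lay above it. The difference in log2 fold change was 0.36 (standard error 0.13, FDR = 0.0194 from limma). This call was lost in 4 of the 6 fits without 1 library, those without CHMm replicate 1 (0.31), CHMm replicate 3 (0.34), CHMmTAM replicate 2 (0.26) and CHMmTAM replicate 3 (0.30). The 3 calls rest on the spread limma pools across miRNAs, because with 3 libraries per line the exact permutation test (two-sided) can reach no p below 0.1.

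The relatives within the cluster were not shown to differ in their change. For miR-19a minus miR-19b the difference of log2 fold change was 0.12, with a 95% interval from -0.29 to 0.53. For miR-17 minus miR-20a it was -0.23, with an interval from -0.55 to 0.09. Leaving out single libraries moved the first from 0.07 (without CHMmTAM replicate 3) to 0.21 (without CHMmTAM replicate 2) and the second from -0.35 (without CHMmTAM replicate 1) to -0.13 (without CHMmTAM replicate 3), and neither was called. Both intervals leave room for differences as large as the changes themselves. miR-19a and miR-19b exceeded miR-92a by 0.45 and 0.33, with FDRs of 0.0748 and 0.122 from limma, and these pairs were not called. The ratio of miR-19a to miR-92a nevertheless did not overlap between the lines, while that of miR-19b to miR-92a did. Without CHMmTAM replicate 1 the differences were 0.60 and 0.51 and both pairs were called (FDR = 0.0296 and 0.000248 from limma). Without CHMmTAM replicate 3 they were 0.28 and 0.21.

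In shares of the members' counts, miR-92a went from 60.1%, 55.7% and 58.7% in CHMm to 57.1%, 48.7% and 49.8% in CHMmTAM. miR-20a went from 34.1%, 38.05% and 35.1% to 36.1%, 44.2% and 42.6%. For both miRNAs CHMmTAM replicate 1 lay within the range of the parental line. The share of miR-18a was 2.54%, 2.88% and 2.55% in CHMm and 3.30%, 3.34% and 3.06% in CHMmTAM, without overlap. miR-17 stayed the smallest part, with 0.258% to 0.317% of the members' counts over all libraries.

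**Figure D4:**
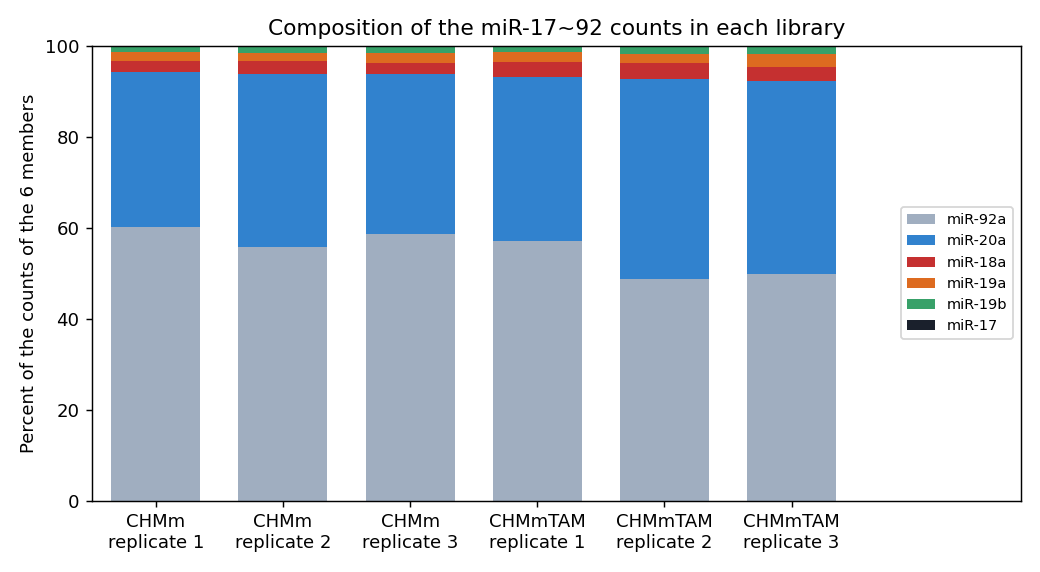
Percent of the counts of the 6 members that each member took, as stacked bars for the 6 libraries. miR-92a (grey) and miR-20a (blue) fill from 92.4% to 94.2% of each bar, and miR-92a is lowest in CHMmTAM replicates 2 and 3, at 48.7% and 49.8%.

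The members were then set beside the miRNAs of the same families, most of which come from the paralogous clusters. miR-106a, miR-18b, miR-20b and miR-363, which belong to the X-linked cluster alone, were scarce, and their highest counts were 77, 51, 296 and 1. miR-106b, miR-93 and miR-25, which make up the miR-106b~25 cluster, were abundant. Of the 9 relatives on the list, 8 were tested, 5 rose and 1 fell, with a median log2 fold change of 0.39, where 25.4% of all tested miRNAs were higher and 18.7% lower. Under upper-quartile scaling 3 of the 8 were higher and 2 lower, with a median of 0.14. Of all 284 tested miRNAs, 41 were higher and 100 lower under that scaling. The families were laid out after the values were seen.

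In the miR-17 family, 5 of 6 miRNAs rose, against 25.4% of all tested miRNAs. The share was 32.6% among those with a mean over both lines of at least 20 CPM. Of the family, miR-106a and miR-20b do not reach that level. Besides miR-20a these were miR-93 at a log2 fold change of 0.48, miR-106b at 0.41, miR-20b at 0.58 and miR-106a at 0.70, and miR-17 itself, placed here by its name, was the one that did not pass. Under upper-quartile scaling 3 of the 6 were called higher, as were 41 of all 284 tested miRNAs. The summed level of the family was 7342, 8181 and 7747 CPM in CHMm and 9360, 10910 and 10599 CPM in CHMmTAM, without overlap. miR-17 and miR-20a contributed between 52.9% and 57.4% of it.

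In the miR-92 family the changes went both ways. miR-32 rose by 0.36 and miR-92b fell by 0.44 on the log2 scale, while miR-92a and miR-25 did not pass, at 0.00286 and 0.08. miR-32 lost its call under upper-quartile scaling, under which 3 miRNAs of the family were called lower, among them miR-25 at -0.16. Of all 284 tested miRNAs, 100 were called lower under that scaling. With library totals without miR-21, miR-25 was instead called higher at 0.17 (FDR = 0.0163 in edgeR's quasi-likelihood test). The family then had 2 higher and 1 lower, where all 284 tested miRNAs had 89 higher and 43 lower. The summed level was 9960, 9829 and 10065 CPM in CHMm and 10801, 10039 and 9829 CPM in CHMmTAM, so the lines overlapped. miR-92a contributed between 67.0% and 73.0%. Summing miR-92a with miR-92b before the test gave a log2 fold change of -0.00172.

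The remaining families are nearly made of cluster members. miR-18a held at least 98.9% of the summed miR-18 counts, and miR-18b was at a log2 fold change of 0.18 with an interval up to 0.68 (FDR = 0.609 in edgeR's quasi-likelihood test). The summed miR-19 level was 360, 370 and 415 CPM in CHMm and 438, 488 and 597 CPM in CHMmTAM, without overlap.

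**Figure D5:**
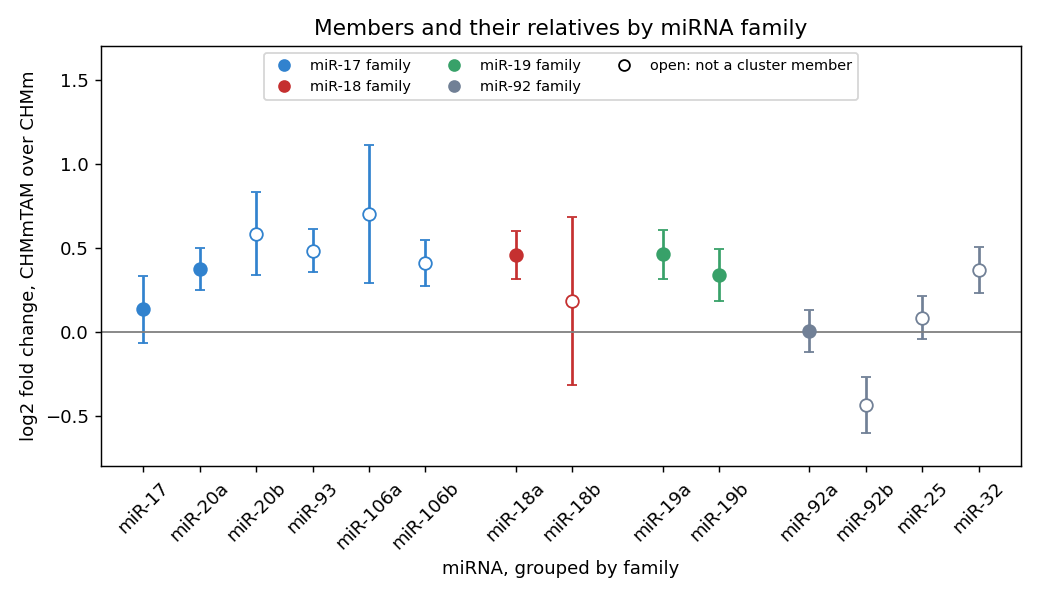
Log2 fold change of members (filled) and relatives (open), CHMmTAM over CHMm, grouped by family, with 95% intervals from the edgeR fit. In the miR-17 family all points lie above 0, although miR-17 itself is at -0.11 under upper-quartile scaling, while the miR-92 family runs from -0.44 for miR-92b to 0.36 for miR-32.

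MYC, besides driving miR-17~92, is known to repress a set of other miRNAs, of which 25 were listed and 24 tested. Of these 3 were higher and 8 lower in CHMmTAM, where 25.4% of all tested miRNAs were higher and 18.7% lower. All tested miRNAs of the list except miR-146a reach a mean level of at least 20 CPM. Of the 141 tested miRNAs at that level, 88 (62.4%) passed the FDR in either direction. Among those 88, 46 (32.6% of the 141) were higher and the rest lower. The share lower at that level is thus above 18.7%, which understates the background for the lower calls of the list. The median log2 fold change of the list was -0.13 against 0.06 over all tested miRNAs. The lowest were miR-26a and miR-26b at -0.54 and -0.53, and the highest were miR-34a at 0.46 and miR-30a at 0.39. The split of calls followed the scaling, with 1 higher and 18 lower under upper-quartile scaling and 6 higher and 4 lower when library totals without miR-21 were used. Over all 284 tested miRNAs, 41 were higher and 100 lower under the first scaling and 89 and 43 under the second. The median of the list was below that of all tested miRNAs by 0.19 under both, a distance that a change of scaling could hardly alter.

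The profile over the 6 libraries most like the mean of the members was sought among 112 other miRNAs with at least 50 CPM. Likeness was the root-mean-square difference of log2 CPM after each profile was centred on its mean. The closest were miR-8884 (0.0583), miR-30a (0.0601), miR-425 (0.0613), miR-186 (0.0753) and let-7g (0.0790). Their log2 fold changes were 0.23, 0.39, 0.29, 0.26 and 0.23. Their direction was fixed by this choice, since the mean profile of the members is higher in CHMmTAM, and it is given without a test. The members themselves lay from 0.0853 for miR-20a to 0.183 for miR-92a from their own mean. They were not picked by distance, whereas the miRNAs above were the closest of 112, so these distances cannot be set against each other.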

How the data were processed

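Total RNA was extracted, miRNA was purified and libraries were sequenced on HiSeq, as the labels state. The deposited values are raw read counts for each named canine miRNA, not normalized, in 1 column per library. The submitters' processing notes name BWA, HISAT2 2.0.4 and CanFam3.1 without saying which made this table. The miRNA database, trimming and the treatment of reads that match several miRNAs are not given in the sources used here, and these steps could move counts between close relatives. Libraries were grouped by their titles. Longer RNAs, including the primary transcript, were not analysed here.

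miRNAs whose counts summed to 10 or more were compared with edgeR 4.0.16 in R 4.3.3, with TMM factors, the quasi-likelihood test and Benjamini-Hochberg adjustment over all 284. Standard errors came from the coefficient and its F statistic. That statistic uses spread pooled over the tested miRNAs, so the spread of a single member had little weight in its interval and FDR. Ratios used counts plus 0.5 and limma 3.58.1. DESeq2 1.42.0, limma-voom, 5 other scalings, 2 other filters, a replicate block, summed relatives and the omission of each library were alternatives. On simulated data 60 of 284 miRNAs were changed in CHMmTAM against CHMm, evenly up and down. There edgeR recovered 100% of changes of 0.5 on the log2 scale above 20 CPM, with 1.8 false calls per simulation. A ratio fit to the most abundant unchanged miRNA other than miR-21 recovered 95.8%. The simulation did not use the members as denominators or require both fits of a pair. It also held fewer changes than the 125 called here, and larger ones than those of the members. It therefore does not give the recovery for the members or their pairs.

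The members and lists were chosen with earlier results of these data known. Named are the members, listed relatives and family miRNAs, the 5 most similar profiles, and the 2 highest and 2 lowest MYC-repressed miRNAs. Mature sequences are not printed. Names were matched to the RefSeq genes for 436 of 453 miRNAs.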

Additional observations from a re-analysis of the deposited data

How the results depend on the processing

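Of 67 alternative values of the 4 members that rose, 64 kept their direction and their call. The exceptions were miR-20a (0.13) and miR-19b (0.10) under upper-quartile scaling and miR-19a in the DESeq2 Wald test (0.40). miR-17, not called in any setting, changed sign under upper-quartile scaling (-0.11). miR-92a, near 0, changed sign with RLE factors (-0.0585), upper-quartile factors (-0.24), TMM without the 10 most abundant miRNAs (-0.0557), the DESeq2 Wald test (-0.0585) and summed with miR-92b (-0.00172). Leaving out each library gave from 0.07 to 0.19 for miR-17, 0.42 to 0.52 for miR-18a, 0.31 to 0.59 for miR-19a, 0.31 to 0.50 for miR-20a, 0.25 to 0.49 for miR-19b and -0.0232 to 0.0404 for miR-92a. The cause of these shifts beyond the scaling itself was not tested.

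The number of member pairs that differed, 3, ranged from 1 to 5 when each library was left out. It was 1 without CHMm replicate 3 or CHMmTAM replicate 3 and 5 without CHMmTAM replicate 1. The exact permutation test, which cannot go below 0.1, gave 0, with 3 pairs at that smallest p. With the replicate number as a block it was 5, the added pairs being miR-19a and miR-19b against miR-92a (FDR = 7.79e-05 and 0.0225 from limma). The block changed no call of a single member. The deviations of same-numbered libraries had correlations of 0.06, 0.46 and -0.31, so the numbers were not taken as pairs. Leave-one-out values of uncalled pairs crossed 0 for miR-18a minus miR-19a (-0.0891 to 0.18), miR-18a minus miR-20a (-0.0134 to 0.16), miR-18a minus miR-19b (-0.00122 to 0.25), miR-19a minus miR-20a (-0.0233 to 0.20) and miR-20a minus miR-19b (-0.00841 to 0.0905).

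The log2 ratio of the cluster's share, 0.17, was 0.26 without miR-21 in the total and 0.39 without the 10 most abundant miRNAs. Of all tested miRNAs, 72 were higher and 53 lower with TMM, 64 and 73 with RLE, 41 and 100 with upper-quartile factors and 59 and 66 in DESeq2.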
